A study of Mus musculus with 6 samples.

Results

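The 41 genes described here encode the machinery that copies DNA in S phase: the replicative helicase and the factors that load and start it, the sliding clamp and its loader, the polymerases, the enzymes that join Okazaki fragments, the enzymes that supply nucleotides, and the factors that rebuild chromatin on the new strands. They were listed by symbol for their function, with earlier results of these data known, and all 41 were found among the 32285 features of all 6 libraries. The cells came from pancreatic tumours of KPC mice (p53LSL.R172H/+ and Pdx1-Cretg/+ among their alleles) and were profiled as droplet single-cell libraries on the 10x Genomics platform, 1 library per mouse. In the treated group (n = 3) the mice received the MEK kinase inhibitor trametinib (1 mg/kg) with hydroxychloroquine (40 mg/kg), which blocks the last step of autophagy in the lysosome, both by mouth. In the vehicle group (n = 3) the mice received corn oil and water. Mice of both groups carried the same alleles, entered the study with a tumour of 4 to 7 mm and were killed 24 h after treatment; their ages are not stated in the labels. Pdx1-Cre acts in the epithelium of the developing pancreas, so the Cre-dependent alleles are switched on in epithelial cells and not in the vessels, fibroblasts or blood cells of the same tumour.

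Replication starts with licensing in G1, when the origin recognition complex, Cdc6 and Cdt1 load the MCM helicase onto DNA. In S phase Cdc45 and the GINS proteins join MCM to form the active helicase, primase and polymerase alpha lay down the primers, the RFC complex loads the PCNA ring, and the main polymerases extend the strands. Most of these genes are transcribed in bursts around the start of S phase under E2F transcription factors, and in a tumour they are therefore read as markers of cells in cycle. MEK passes growth factor signals to ERK, which promotes entry into the cell cycle, in tumour cells and also in endothelial cells stimulated by VEGF.

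To show where E2F factors could act, promoters were read from RefSeq (GRCm38.p6, 250 bases before to 50 bases after each start site) for 33 of the 41 members. They were searched on both strands for 4 E2F-type motifs, TTTCCCGC, TTTCGCGC, TTTGCCGC and TTTGGCGC, which can overlap one another. A match was present in 13 of the 33 members (39.4%), in 9 of 31 other replication genes (29.0%), in 1 of 33 genes of G2 and mitosis (3.03%), in 6 of 9 E2F factor and cyclin E genes (66.7%) and in 704 of all 27025 genes of the table (2.60%). The windows below belong to 3 helicase subunits whose transcripts fell in endothelial cells of treated mice; capitals mark the motif letters, each sequence is given 5′ to 3′ along its gene, and a match is a description of the letters and not a shown binding site.
Mcm5, chr8:75109288-75109387, plus strand, 2 overlapping matches: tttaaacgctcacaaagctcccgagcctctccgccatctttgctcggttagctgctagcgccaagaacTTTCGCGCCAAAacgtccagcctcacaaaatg
Mcm6, chr1:128359725-128359824, minus strand, 3 matches of which 2 overlap: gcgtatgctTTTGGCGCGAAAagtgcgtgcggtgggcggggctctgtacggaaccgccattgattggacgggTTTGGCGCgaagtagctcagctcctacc
Mcm7, chr5:138172021-138172120, minus strand, 1 match: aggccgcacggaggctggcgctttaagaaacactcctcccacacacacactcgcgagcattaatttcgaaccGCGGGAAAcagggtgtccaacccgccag
The counts above cover the printed windows only. Mcm7 had a further match after its start site, outside the window, and none at its other listed start site. Among the other members that fell in the same cells, matches were also present at Mcm3 (2, both after the start site) and at 1 of 3 listed start sites of Lig1, and none was found in the windows of Dut, Dctpp1 or Tyms. The promoters of Gins2, which also fell, and of Mcm4, Gins1, Gins4, Rfc2, Dscc1, Prim2 and Pole were not used here.

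Libraries held 22996012 to 126645602 UMIs (unique molecular identifiers, each counting 1 captured transcript), and 37018 cells were kept, 3926, 5169 and 5983 in treated mice, against 2142, 9475 and 10323 in vehicle mice. Clusters made without the members and without other cell cycle genes gave 7 classes tested in all 6 mice, with 33524 cells, and the 9 endothelial markers summed to between 6915 and 9307 CPM (UMI counts scaled to 1000000 per class and mouse) in the endothelial class of every mouse. Class names are rebuilt from markers and are not the authors'. Depth differed between mice, so shares of cells were taken after every cell with at least 2000 UMIs was thinned to 2000. A cell with at least 5 member UMIs of those 2000 is called replicating, and a cell with at least 3 UMIs of a list of 38 genes of G2 and mitosis, none of them a member, is called mitotic. Cells below 2000 UMIs, left out of these shares, made up 20.4%, 27.9% and 13.4% of kept cells in treated 1, 2 and 3. In vehicle 1, 2 and 3 they made up 31.2%, 33.7% and 38.3%. Of endothelial cells, 33 of 222, 28 of 211 and 25 of 172 were left out in treated mice. In vehicle mice 21 of 47, 86 of 329 and 44 of 246 were left out. Whether the cells left out replicated as often as the others was not tested. Vehicle 1 stood apart: it shared at most 1 cell barcode with any other library, against 9 to 24 between the others, and it was the smallest library. Treated 1 and treated 2 were the most alike pair of mice in tumour, endothelial, fibroblast, macrophage and neutrophil sums. In tumour cells the spread of log2 ratios over genes (scaled median absolute deviation) was 0.13 between them and 0.49 to 0.91 in the other 14 pairs. Nothing beyond the labels says that the mice of a group were independent of each other in litter or day.

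In endothelial cells, which line the blood vessels, replication transcripts were scarcer in treated than in vehicle mice, and 9 of the 41 members fell by the gene test: the helicase subunits Mcm3, Mcm5, Mcm6 and Mcm7, the helicase partner Gins2, the ligase Lig1, and the nucleotide enzymes Dut, Dctpp1 and Tyms. Fewer endothelial cells were replicating: 1 of 189, 1 of 183 and 6 of 147 in treated 1, 2 and 3, against 1 of 26, 43 of 243 and 36 of 202 in vehicle 1, 2 and 3. These shares were 0.529%, 0.546% and 4.08% in treated mice, against 3.85%, 17.7% and 17.8% in vehicle mice. Their exact 95% binomial intervals, which cover counting error only, were 0.0134% to 2.91%, 0.0138% to 3.01% and 1.51% to 8.67% in treated mice, against 0.0973% to 19.6%, 13.1% to 23.1% and 12.8% to 23.8% in vehicle mice. Vehicle 2 and 3 stood well above every treated mouse, while vehicle 1, with 26 cells of sufficient depth, lay below treated 3. The means were 1.72% ± 2.05 in treated mice, against 13.1% ± 8.03 in vehicle mice (SD, n = 3 each), a difference that did not pass the two-sided exact permutation test (p = 0.2; the smallest this design allows is 0.1). Without vehicle 1 the means were 1.72% in treated mice, against 17.8% in vehicle mice.

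**Figure D1:**
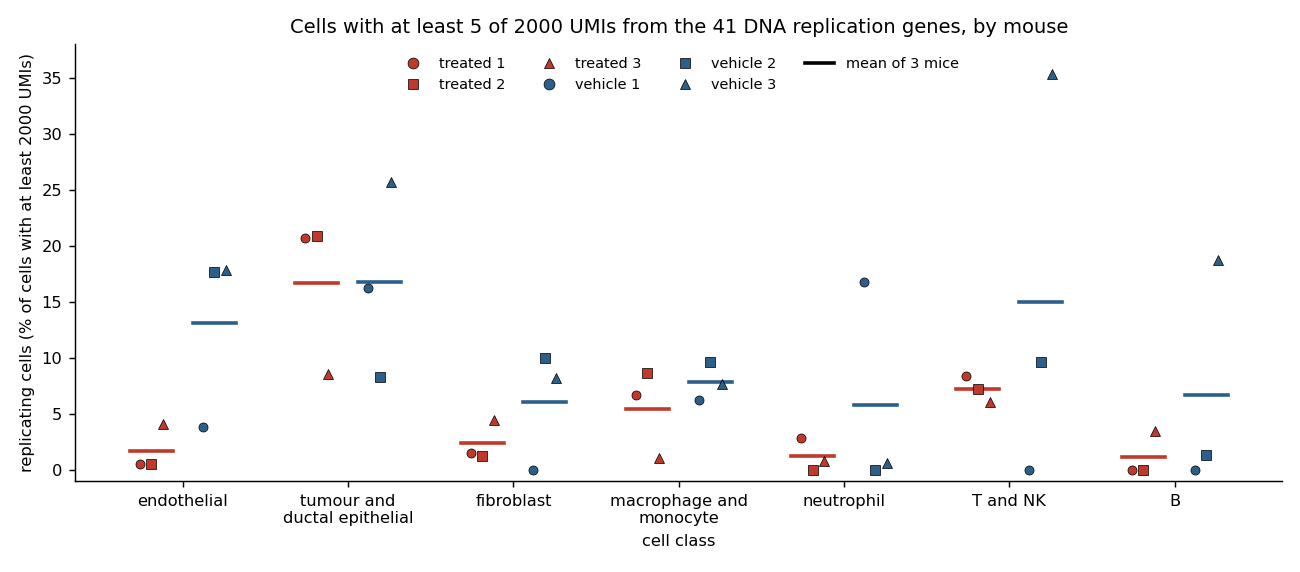
Share of replicating cells (vertical axis, percent of cells with at least 2000 UMIs) in 7 cell classes (horizontal axis) of treated mice (red, left) and vehicle mice (blue, right); each symbol is 1 mouse and each bar the mean of 3 mice. In endothelial cells the treated mice lie at 0.529%, 0.546% and 4.08%, with vehicle 2 and 3 at 17.7% and 17.8%; the groups overlap in all 7 classes.

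Part of the replicating count lay close to the limit. Endothelial cells with exactly 4 member UMIs, just outside it, numbered 2, 5 and 2 in treated mice, against 0, 7 and 12 in vehicle mice, and cells with exactly 5, just inside it, numbered 0, 1 and 0 in treated mice, against 0, 10 and 9 in vehicle mice. Counting all members in all cells, a thinned endothelial cell held 0.915, 0.995 and 1.12 member UMIs on average in treated 1, 2 and 3, against 1.154, 2.30 and 2.49 in vehicle 1, 2 and 3. Every treated mouse was below every vehicle mouse (means 1.01 ± 0.10 and 1.98 ± 0.72, exact p = 0.1, the smallest possible), although treated 3 and vehicle 1 were close. Before thinning, endothelial cells of treated mice were the deeper, with medians of 5898, 5738 and 8928 UMIs per cell in treated mice, against 2389, 4875 and 5182 in vehicle mice, and the unthinned share of cells with at least 5 member UMIs was 27.9%, 25.6% and 41.3% in treated mice, against 12.8%, 37.7% and 41.9% in vehicle mice.

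Mitotic endothelial cells, chosen by genes that are not members, followed the same mice. They made up 0%, 0.546% and 2.04% of cells in treated mice, against 0%, 25.1% and 24.8% in vehicle mice. The count of 0 in treated 1 allows a share of up to 1.59%, but in vehicle 1 of up to 11.5%, so vehicle 1 gives little information. By the same call 9.36% to 19.2% of the neutrophils of treated mice were mitotic, with few member UMIs, so the call is not specific to cells in cycle. Cluster 18 held most of the endothelial class in all 6 mice, and within that cluster 1 of 157, 0 of 127 and 5 of 138 cells were replicating in treated mice, against 1 of 26, 36 of 190 and 35 of 188 in vehicle mice. In cluster 31, led by the lymphatic genes Ccl21a, Mmrn1 and Prox1, the counts were 0 of 32, 1 of 56 and 1 of 9 in treated mice, against 7 of 53 and 1 of 14 in vehicle 2 and vehicle 3, with no such cell in vehicle 1.

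The difference in member UMIs per cell can be divided into a share part, the proportion of replicating cells, and a level part, the member UMIs within replicating cells and within the others. Replicating endothelial cells held 7.02 member UMIs in treated mice, against 7.51 in vehicle mice, and the other cells 0.906 in treated and 1.14 in vehicle mice, with mice weighted equally within a group. Moving the share alone to its treated value gave 1.25 UMIs per cell, 1.58-fold below the vehicle mean. Moving the levels alone gave 1.71 UMIs per cell, 1.16-fold below it, where the whole difference was 1.96-fold. The level within replicating cells has a floor of 5 by construction, and in treated mice it rests on 8 cells, so a change of level could not be seen well in it.

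The same division was made for each member, as the share of cells with at least 1 UMI of the gene and the UMIs per such cell. Over the 38 members with a value in both groups, the median log2 ratio of treated over vehicle was −1.08 in all, of which −1.04 came from the share of positive cells and −0.01 from the level; 34 of the 38 had a lower share in treated mice. A cell that was positive for a member held between 1.0 and 1.56 UMIs of it in every group, so at this depth the level part can register almost no change. Dctpp1, which destroys damaged dCTP, was detected in 2.12%, 3.28% and 2.72% of thinned endothelial cells in treated mice, and in 11.5%, 9.88% and 11.4% in vehicle mice. Dut, which keeps uracil out of DNA by breaking down dUTP, was detected in 6.88%, 6.56% and 6.12% in treated mice, and in 11.5%, 12.3% and 16.8% in vehicle mice. Mcm6 was detected in 2.12%, 1.09% and 2.72% in treated mice, and in 7.69%, 6.58% and 7.92% in vehicle mice. For these 3 genes no treated mouse reached a vehicle mouse. That held for 12 of the 41 members in all, and the reverse for 0. No such count was made over all genes, so these 2 counts are not read as a result about the members. Neutrophils, which as mature cells no longer divide, were set beside these shares at the same depth, although 16.8% of those of vehicle 1 were replicating. They held Dctpp1 in 3.85%, 9.62% and 3.19% of cells in treated mice and in 8.38%, 5% and 4.85% in vehicle mice, and Mcm6 in 0%, 0% and 0.398% in treated mice and in 4.71%, 0% and 1.21% in vehicle mice. The Dctpp1 shares of treated endothelial cells are thus no higher than those of neutrophils of the same mice. Pcna reached 15.4%, 21.2% and 21.5% of neutrophils in treated mice, against 12.0%, 25% and 7.88% in vehicle mice, so that gene alone did not mark replicating cells. Only 52 neutrophils of treated 2 and 20 of vehicle 2 had this depth, so the neutrophil shares of these mice are coarse.

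**Figure D2:**
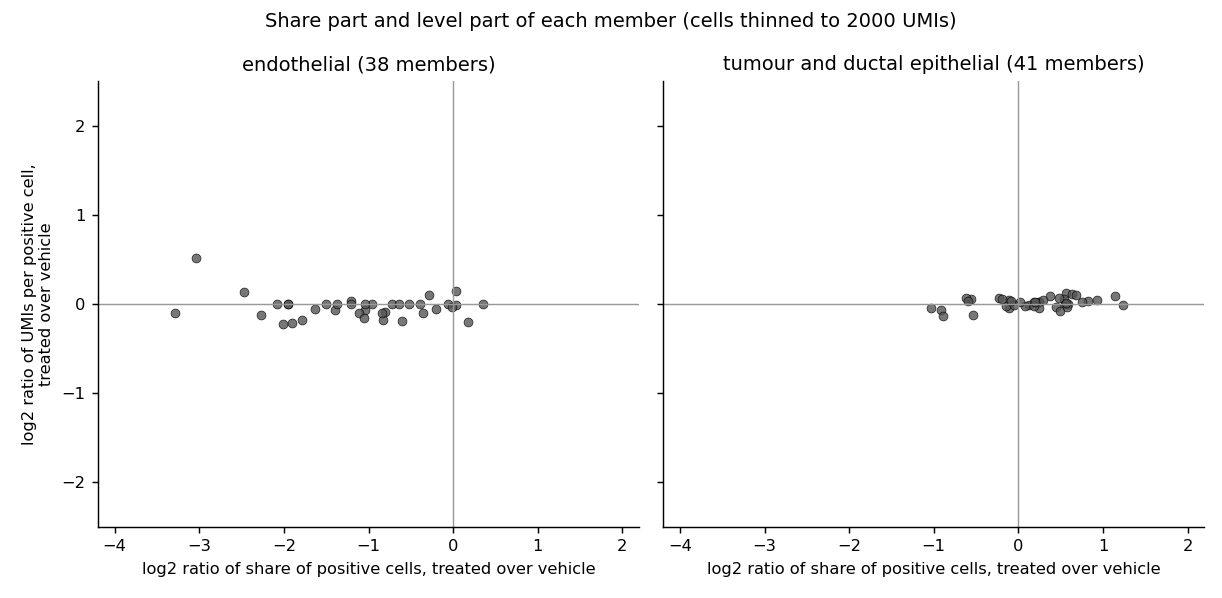
Each point is 1 member; the horizontal axis is the log2 ratio (treated over vehicle) of the share of cells with at least 1 UMI, and the vertical axis the log2 ratio of UMIs per such cell, for endothelial cells (38 members) and tumour cells (41 members), both thinned to 2000 UMIs. The endothelial points are spread to the left of 0 with a median share part of −1.04 and lie close to 0 on the level axis (median −0.01), while the tumour points have a median share part of 0.24.

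The gene test used all UMIs, summed per mouse over the class, in edgeR's quasi-likelihood test with Benjamini-Hochberg adjustment over 10133 genes. Of the 41 members 37 passed the filter on low counts; 9 were lower and 0 higher, against a background of 0.730% of all genes called lower and 0.118% called higher. All 37 fold changes were negative, with a median of −1.57, where the median of all genes tested was 0.03. The filter needs counts in several mice, so this median is a description of the members that passed and not of all of them. The 4 that did not pass were Mcm10, Orc1, Dscc1 and Pole, whose highest group mean was 7.02 CPM, and over all 41 members the group mean in CPM was lower in treated mice for 40 and higher for 1, Rfc2. At an unadjusted p under 0.05, 32 members were lower, against 12.0% of all genes, and 0 were higher, against 8.05%. The 3 treated mice were all below the 3 vehicle mice in CPM for 18 of the 41, Mcm10 among them, against 9.73% of genes tested. The reverse held for 0 members, against 18.2% of genes tested.

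Of the helicase subunits MCM2 to MCM7, 4 of 6 fell (median log2 fold change −1.55), and the sum of the 6 genes was 75.4, 79.3 and 98.6 CPM in treated mice, against 168, 223 and 280.4 CPM in vehicle mice. Mcm5 had 5.26, 3.90 and 10.2 CPM in treated mice, against 31.2, 39.1 and 44.6 CPM in vehicle mice. It was the strongest helicase change, with every treated mouse far below every vehicle mouse: a log2 fold change of −2.68 ± 0.33 (SE; edgeR, adjusted p = 0.0163), or 6.40-fold lower in treated mice. Mcm6 had 5.26, 7.15 and 12.0 CPM in treated mice, against 18.7, 35.2 and 51.1 CPM in vehicle mice (−2.35 ± 0.36, adjusted p = 0.0163). Mcm7 had 14.6, 14.96 and 11.1 CPM in treated mice, against 37.4, 39.9 and 46.4 CPM in vehicle mice (−1.75 ± 0.24, adjusted p = 0.0163). Mcm3 had 28.1, 32.5 and 31.01 CPM in treated mice, against 62.4, 54.2 and 69.2 CPM in vehicle mice (−1.12 ± 0.22, adjusted p = 0.0437). Groups did not overlap for any of these 4 genes. The other two subunits did not pass, with Mcm2 at −1.35 (adjusted p = 0.0902) and Mcm4 at −1.12 (adjusted p = 0.119). In GENCODE M21 on mm10, Mcm5 (ENSMUSG00000005410) lies on chromosome 8 from 75109569 to 75128439, and Mcm6 (ENSMUSG00000026355) on chromosome 1 from 128331590 to 128359664. Mcm7 (ENSMUSG00000029730) lies on chromosome 5 from 138164583 to 138172422, and Mcm3 (ENSMUSG00000041859) on chromosome 1 from 20802968 to 20820312.

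Cdc45 and the GINS proteins complete the active helicase, and Mcm10 helps to start it. Gins2 (ENSMUSG00000031821, chromosome 8, 120578633 to 120589304) had 5.26, 2.60 and 8.33 CPM in treated mice, against 24.95, 26.7 and 19.96 CPM in vehicle mice (−2.15 ± 0.38, adjusted p = 0.0297). Its groups were far apart, and it was the 1 member of 5 tested in this set that fell. Cdc45 had 0, 0 and 3.70 CPM in treated mice, against 31.2, 10.8 and 7.89 CPM in vehicle mice, and rested on 58 UMIs in all (adjusted p = 0.121). Among the licensing factors 0 of 3 tested fell; Cdc6, the loader of the helicase, had 1.75, 1.95 and 2.31 CPM in treated mice, against 6.24, 6.20 and 10.2 CPM in vehicle mice (adjusted p = 0.0733). A single UMI is worth 6.24 CPM in the endothelial sum of vehicle 1, so its values for rare genes are coarse.

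Among the clamp, the clamp loader and the single-strand binding protein Rpa2, 0 of 6 tested members fell (median −1.10). Pcna, the sliding clamp, had 66.0, 49.4 and 77.8 CPM in treated mice, against 24.95, 119 and 112 CPM in vehicle mice (−0.71, adjusted p = 0.277). Vehicle 1 lay below every treated mouse for Pcna, and without vehicle 1 Pcna was among the genes called lower. The loader subunits Rfc2 (−0.13, adjusted p = 0.822) and Rfc3 (−0.56, adjusted p = 0.241) did not pass. For Rfc2 the fit and the raw means differ in sign, since its mean was 37.7 CPM in treated mice, against 32.2 CPM in vehicle mice. Of the polymerase and primase genes, 0 of 5 tested fell (median −1.30), the lowest adjusted p being 0.0611 for the primase subunit Prim1 at 1.17, 4.55 and 6.02 CPM in treated mice, against 6.24, 17.0 and 21.8 CPM in vehicle mice.

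Lig1, the ligase that seals Okazaki fragments (ENSMUSG00000056394, chromosome 7, 13277283 to 13311433), had 13.4, 14.3 and 18.1 CPM in treated mice, against 12.5, 53.1 and 69.2 CPM in vehicle mice. It passed the test (−1.91 ± 0.34, adjusted p = 0.0297) although vehicle 1 lay below all treated mice. Fen1, the nuclease that trims the fragments, did not pass (−1.44, adjusted p = 0.0997). On the opposite strand, Lig1 overlaps Zswim9 by 1439 bases, Gins2 overlaps Gse1 by 2758 bases and Mcm7 overlaps Ap4m1 by 421 and Cops6 by 64 bases. No source used here gives the strand setting of the counting, so reads of these pairs cannot be told apart with certainty.

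The enzymes of nucleotide supply had a median of −1.87, and 3 of 6 fell. Dut (ENSMUSG00000027203, chromosome 2, 125247190 to 125258608) had 43.2, 31.9 and 36.1 CPM in treated mice, against 87.3, 96.1 and 124 CPM in vehicle mice (−1.62 ± 0.22, adjusted p = 0.0163). Dctpp1 (ENSMUSG00000042462, chromosome 7, 127256959 to 127260709) had 21.6, 13.005 and 17.1 CPM in treated mice, against 56.1, 58.1 and 88.2 CPM in vehicle mice (−2.13 ± 0.28, adjusted p = 0.0163). For both, all treated mice lay well below all vehicle mice. Tyms, thymidylate synthase (ENSMUSG00000025747, chromosome 5, 30058202 to 30073617), had 50.3, 35.8 and 51.8 CPM in treated mice, against 49.9, 137 and 123 CPM in vehicle mice (−1.40 ± 0.27, adjusted p = 0.0437), so that vehicle 1 lay among the treated mice. The ribonucleotide reductase subunit Rrm1 had 18.7, 24.1 and 28.2 CPM in treated mice, against 0, 56.5 and 62.7 CPM in vehicle mice (−1.21, adjusted p = 0.178). The largest fitted changes of the set, Tk1 at −3.24 (adjusted p = 0.0723) and Rrm2 at −2.89 (adjusted p = 0.106), missed the threshold. Among the chromatin factors 0 of 4 fell (median −1.80), and the histone chaperone Nasp had 50.3, 56.6 and 54.2 CPM in treated mice, against 49.9, 80.9 and 105 CPM in vehicle mice (−0.78, adjusted p = 0.116).

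**Figure D3:**
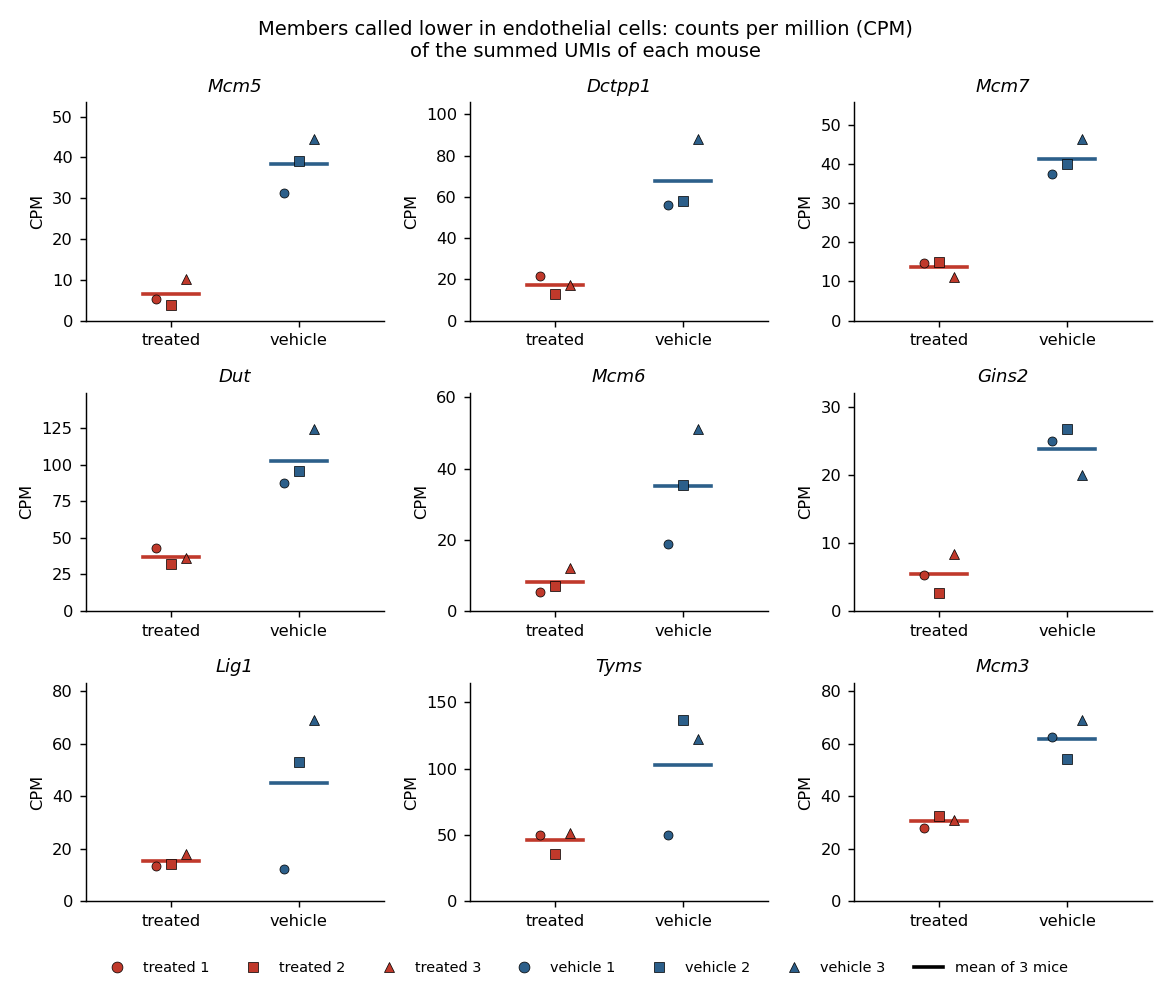
CPM (vertical axes, each from 0) of the 9 members called lower in endothelial cells, for treated mice (red, left) and vehicle mice (blue, right); symbols are mice and bars means of 3 mice. For Mcm5 the treated mice lie at 3.90 to 10.2 CPM and the vehicle mice at 31.2 to 44.6 CPM; for Lig1 and Tyms vehicle 1 lies at 12.5 and 49.9 CPM, within or below the range of the treated mice.

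Genes of the cell cycle outside the 41 also fell in endothelial cells. Of 28 other replication genes tested, 3 fell (median −0.82): Dtymk, a kinase that makes dTDP, at −1.56 (adjusted p = 0.0163), the checkpoint adaptor Clspn at −2.25 (adjusted p = 0.0163), and Gmnn, the inhibitor of Cdt1, at −1.65 (adjusted p = 0.0335), while Tipin did not pass (−1.17, adjusted p = 0.0592). Of 21 genes of G2 and mitosis tested, 6 fell (median −3.26), among them Cks2 at −2.89 (adjusted p = 0.013) and the motor Kif11, the cyclin Ccnb2 and the kinase Aurka at −3.05, −3.48 and −3.30 (adjusted p = 0.0163 for each). Cks2 stood at 10.5, 11.7 and 21.3 CPM in treated mice, against 62.4, 120 and 105 CPM in vehicle mice, with no overlap. Of 8 E2F and cyclin E genes tested, 2 fell (median −0.68): E2f1, an activator of S-phase genes, at −2.59 (adjusted p = 0.0163) and its partner Tfdp1 at −1.28 (adjusted p = 0.0269), while Ccne1 did not pass (−2.90, adjusted p = 0.0618).

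Markers of other cells moved with this result. In endothelial sums, the 10 tumour cell markers, none of them at 0 in all mice, added to 52.7 to 137 CPM in treated mice, against 137 to 495 CPM in vehicle mice, and 2 of 8 tested were lower. These markers stood at 0.742% to 3.28% of their level in tumour cells in treated mice and at 3.15% to 4.51% in vehicle mice. The same percentages of the tumour cells' own member total come to 7.63 to 55.8 CPM in treated mice, against 35.7 to 81.1 CPM in vehicle mice, where the member total in endothelial cells was 533, 477 and 641 CPM in treated mice, against 717, 1367 and 1499 CPM in vehicle mice. The 8 fibroblast markers summed to 102 to 125 CPM in treated mice, against 125 to 450.1 CPM in vehicle mice, and the 8 neutrophil markers to 39.3 to 53.2 CPM in treated mice, against 27.1 to 524 CPM in vehicle mice, the highest in vehicle 1; their part in the result was not tested.

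The endothelial calls rested on few mice. Leaving out treated 1, treated 2 or vehicle 3, or summing treated 1 and treated 2 as 1 sample, left 0 members called, while leaving out treated 3 gave 16 and leaving out vehicle 1 gave 24; fold changes of the 9 called members stayed negative under all 17 alternatives, Mcm5 between −3.22 and −2.03. With doublets kept, 7 members were called and Mcm3, Mcm7, Dut and Tyms were not among them. The share of all genes called is not given for these alternatives. Their counts show only how far the call moved, and are not read as a result about the members.

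Whether the endothelial response differed from that of other classes was tested as an interaction, with a term for each mouse, in 3 pairs of classes. Against tumour cells the difference in log2 fold change was negative for 40 of 41 members (median −1.30), against fibroblasts for 31 of 39 (median −0.85) and against macrophages for 37 of 39 (median −1.03). In each pair 0 members were called, against backgrounds of 0%, 0.0168% and 0.0345% of genes called negative. The gap for Mcm5 was −2.24 ± 0.68 against tumour cells (edgeR, adjusted p = 0.462), −1.09 ± 0.35 against fibroblasts (adjusted p = 0.352) and −1.75 ± 0.73 against macrophages (adjusted p = 0.349). A response particular to endothelial cells was therefore not shown. Without treated 3, the call numbered 1 member against tumour cells and 15 against macrophages. The share of all genes called without treated 3 is not given, so these counts are not read as a result about the members.

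**Figure D4:**
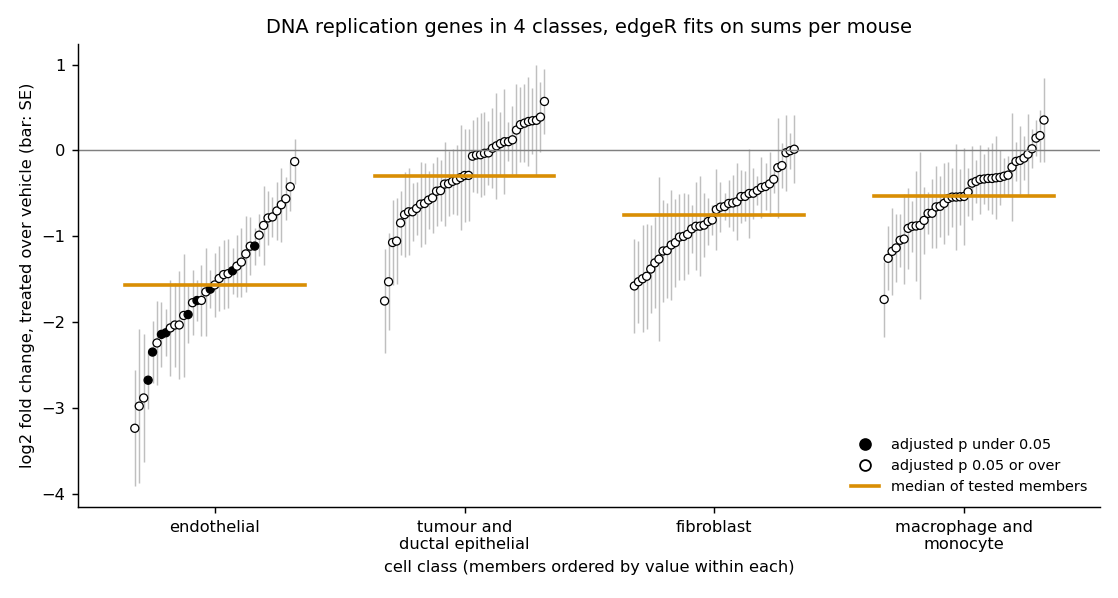
Log2 fold changes (vertical axis, treated over vehicle, bars are SE) of the members tested in 4 classes, ordered by value within each class (horizontal axis); filled points have an adjusted p under 0.05 and orange lines are medians. The 9 filled points are all endothelial, where the median is −1.57, and the medians are −0.29 in tumour cells, −0.75 in fibroblasts and −0.54 in macrophages.

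In tumour and ductal epithelial cells, a class in which Pdx1-Cre acts, the share of replicating cells did not separate the groups. It was 20.7%, 20.9% and 8.55% in treated 1, 2 and 3, against 16.2%, 8.32% and 25.7% in vehicle 1, 2 and 3. The exact 95% intervals were 18.7% to 22.8%, 19.2% to 22.7% and 6.52% to 10.96% in treated mice, against 12.6% to 20.4%, 7.31% to 9.43% and 23.9% to 27.4% in vehicle mice, so mice of 1 group differed from each other far beyond counting error. The means were 16.7% ± 7.08 in treated and 16.7% ± 8.68 in vehicle mice (exact permutation p = 1.0). In edgeR 0 of 41 members were called, against a background of 0% of 15449 genes; 2 members (Rrm2 and Dctpp1) were lower at an unadjusted p under 0.05 (6.94% of genes), and DESeq2 also called 0. The median fold change was −0.29, with 27 negative, where the median of all genes was −0.06. With scaling by library size alone the member median was 0.12 and the median of all genes 0.29, so the sign of the member median depended on the scaling, while it lay below the median of all genes under both.

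Single members of tumour cells behaved unlike each other. Dut had 179, 165 and 85.7 CPM in treated mice, against 213, 108 and 164 CPM in vehicle mice (−0.55, adjusted p = 0.573). Dctpp1 had 68.3, 56.0 and 92.3 CPM in treated mice, against 132, 71.7 and 258 CPM in vehicle mice (−1.53, adjusted p = 0.372), and overlapped between the groups. Pcna had 125, 115 and 90.3 CPM in treated mice, against 88.5, 86.3 and 67.8 CPM in vehicle mice. It was the 1 member whose treated mice all lay above the vehicle mice in CPM, against 22.1% of genes, and its scaled fold change was 0.10 (adjusted p = 0.864). Nasp had 128, 126 and 55.1 CPM in treated mice, against 39.6, 51.6 and 104 CPM in vehicle mice (0.24, adjusted p = 0.865). The tumour cells of different mice fell mostly into different clusters. The largest was cluster 29 for treated 1 and 2, cluster 26 for treated 3, and clusters 13, 22 and 28 for vehicle 1, 2 and 3.

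The level within replicating tumour cells did separate the groups. A replicating cell held 8.52, 8.29 and 7.96 member UMIs of 2000 in treated 1, 2 and 3, against 7.25, 7.28 and 7.05 in vehicle 1, 2 and 3. Each treated mouse was above each vehicle mouse, with means of 8.26 ± 0.28 in treated and 7.19 ± 0.13 in vehicle mice (SD, n = 3 each; exact permutation p = 0.1, the smallest possible). Since these cells were chosen by the members themselves, the members were also tested in mitotic tumour cells, chosen by other genes, of which each mouse had 66 to 924. There the member UMIs per cell were 5.95, 6.35 and 4.74 in treated mice, against 4.97, 4.02 and 4.43 in vehicle mice, which overlap (exact p = 0.2). Of 41 members tested within mitotic cells edgeR called 0 (background 0% of 12787 genes), with a median of 0.08, 24 positive and 17 negative. At an unadjusted p under 0.05, 4 were higher and 1 lower. The share of all genes past that limit is not given for mitotic cells, so these counts are not read as a result about the members. In the fit over all tumour cells 5.94% of genes were higher and 6.94% lower at that limit. Mcm2, picked here after its values were seen, had 93.3, 99.4 and 59.2 CPM in mitotic tumour cells of treated mice, against 29.7, 36.5 and 32.1 CPM in those of vehicle mice (0.99 ± 0.26, adjusted p = 0.251).

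In macrophages and monocytes the replicating share overlapped between the groups, but the mitotic share did not. Replicating cells made up 6.67%, 8.69% and 1.07% in treated 1, 2 and 3, against 6.25%, 9.61% and 7.65% in vehicle 1, 2 and 3 (means 5.47% ± 3.95 and 7.84% ± 1.69, exact p = 0.5). Treated 3 was the low one. Mitotic cells made up 2.88%, 3.75% and 1.83% in treated mice, with exact 95% intervals of 1.66% to 4.64%, 2.36% to 5.62% and 1.33% to 2.46%. In vehicle mice they made up 6.82%, 11.7% and 9.13%, with intervals of 4.42% to 9.98%, 10.0% to 13.5% and 8.02% to 10.3%. Each treated mouse lay below each vehicle mouse, with means of 2.82% ± 0.96 in treated and 9.21% ± 2.43 in vehicle mice (exact p = 0.1, the smallest possible). Mitotic macrophages held 4.25, 5.36 and 3.53 member UMIs in treated mice, against 4.75, 5.44 and 5.01 in vehicle mice. Markers of other cells moved with this share: in macrophage sums the 10 tumour cell markers added to 56.9 to 63.1 CPM in treated mice, against 90.2 to 567 CPM in vehicle mice. The 9 T and NK markers added to 2.16 to 2.89 CPM in treated mice, against 5.28 to 9.11 CPM in vehicle mice, and the 7 B cell markers to 5.32 to 8.24 CPM in treated mice, against 9.84 to 32.2 CPM in vehicle mice. The 7 markers of conventional dendritic cells added to 3.85 to 4.74 CPM in treated mice, against 7.37 to 7.79 CPM in vehicle mice; none of these markers was at 0 in all mice, and their part in the result was not tested.

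**Figure D5:**
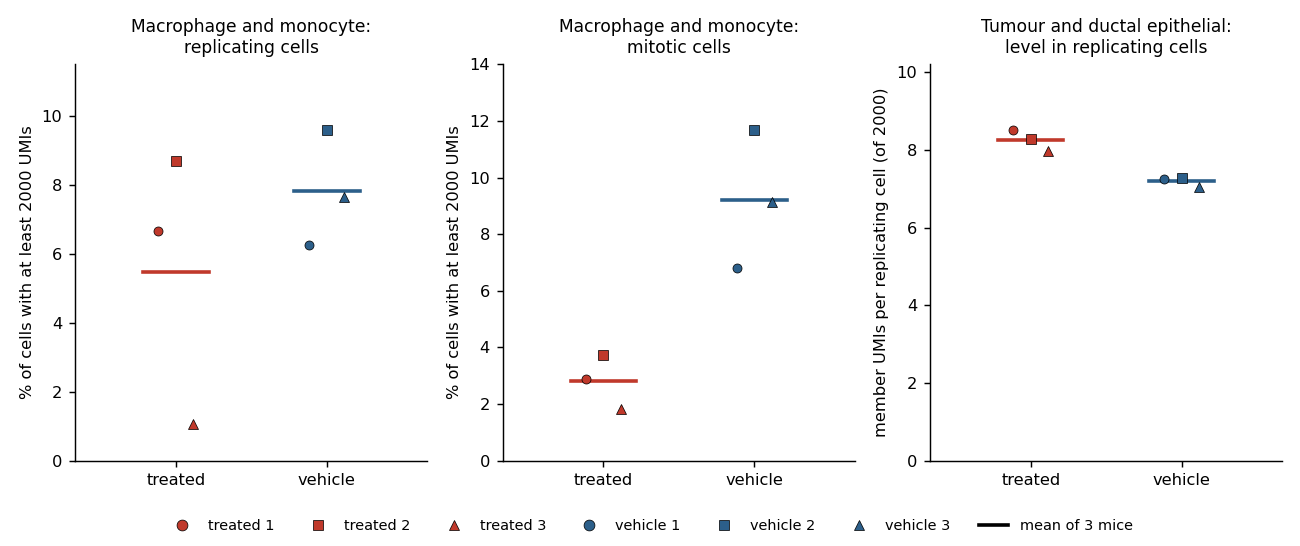
The vertical axes, each from 0, show the percent of macrophages and monocytes that were replicating (left) or mitotic (middle) and the member UMIs per replicating tumour cell (right), for treated mice (red, left) and vehicle mice (blue, right); symbols are mice and bars means of 3 mice. Replicating macrophages overlap between groups, mitotic macrophages lie at 1.83% to 3.75% in treated and 6.82% to 11.7% in vehicle mice, and replicating tumour cells hold 7.96 to 8.52 UMIs in treated mice, against 7.05 to 7.28 in vehicle mice.

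The gene test in macrophages called 0 of 41 members, against 0% of 11527 genes; 7 were lower at an unadjusted p under 0.05 (5.51% of genes), and DESeq2 called 1, the thymidine kinase Tk1. Fold changes were negative for 37 of 41 (median −0.54, all genes 0.01), and 14 members had all treated mice below all vehicle mice in CPM, against 10.9% of genes, and 0 the reverse, against 6.05%. Pcna had 99.6, 113 and 94.8 CPM in treated mice, against 66.8, 124 and 97.6 CPM in vehicle mice (0.14, adjusted p = 0.858), and Mcm3 had 47.9, 64.1 and 34.7 CPM in treated mice, against 27.8, 47.0 and 59.6 CPM in vehicle mice (0.17, adjusted p = 0.891). Nasp had 46.7, 49.5 and 53.6 CPM in treated mice, against 38.6, 75.5 and 77.0 CPM in vehicle mice (−0.30, adjusted p = 0.681). Dctpp1 had 52.5, 44.0 and 26.6 CPM in treated mice, against 79.8, 56.4 and 57.3 CPM in vehicle mice (−0.65, adjusted p = 0.576).

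The nucleotide enzymes had the lowest median of any role in macrophages, −0.97. Tk1, also chosen after its values were seen, had 5.89, 7.87 and 3.25 CPM in treated mice, against 17.3, 28.2 and 11.6 CPM in vehicle mice (−1.74 ± 0.43, adjusted p = 0.216). For genes of G2 and mitosis the macrophage median was −1.75, with all 38 negative and 34 of 38 not overlapping in CPM, and 0 called (smallest adjusted p = 0.0778). Within mitotic macrophages, of which each mouse had 16 to 222, edgeR called 0 of 35 members tested (0% of 5997 genes were called lower and 0.0167% higher), with a median of 0.07. Macrophages too fell into different clusters, the largest being cluster 2 for treated 1 and 2, cluster 5 for treated 3, cluster 3 for vehicle 1 and cluster 1 for vehicle 2 and 3.

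In fibroblasts replicating cells made up 1.52%, 1.28% and 4.50% in treated 1, 2 and 3, against 0%, 10.0% and 8.17% in vehicle 1, 2 and 3 (means 2.44% ± 1.79 and 6.06% ± 5.33, exact p = 0.4). The 0 of 80 cells in vehicle 1 allows a share of up to 3.75%, which reaches into the treated range. Of 40 members tested (Orc1 was not) 0 were called in edgeR, against 0% of 12458 genes, with 39 negative and a median of −0.75; 11 were lower at an unadjusted p under 0.05 (8.38% of genes), and DESeq2 called Dctpp1. Dut had 52.9, 46.4 and 53.5 CPM in treated mice, against 56.4, 82.7 and 76.6 CPM in vehicle mice (−0.66, adjusted p = 0.201), without overlap. Tyms had 30.5, 21.5 and 48.7 CPM in treated mice, against 22.2, 119 and 85.0 CPM in vehicle mice (−1.31, adjusted p = 0.302). Rrm1 stood at 0.01 (adjusted p = 0.993) and Pcna at −0.18 (adjusted p = 0.772). The mice again differed, vehicle 1 having 0 replicating fibroblasts and vehicle 2 and 3 the highest shares. Cluster 10 was the largest for fibroblasts of treated 1 and 2, cluster 14 for those of treated 3, vehicle 1 and vehicle 3, and cluster 11 for those of vehicle 2. In fibroblast sums the 8 neutrophil markers added to 62.5 to 153 CPM in treated mice, against 256 to 2656 CPM in vehicle mice, and the 7 markers of conventional dendritic cells, of which Cd209a was at 0, to 92.1 to 108 CPM in treated mice, against 132 to 188 CPM in vehicle mice. The 7 mesothelial markers added to 134 to 370 CPM in treated mice, against 80.9 to 89.8 CPM in vehicle mice, and the part of these cells in the result was not tested.

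In neutrophils few cells were replicating, apart from vehicle 1. Replicating cells made up 2.88%, 0% and 0.797% in treated 1, 2 and 3, against 16.8%, 0% and 0.606% in vehicle 1, 2 and 3 (exact p = 0.9). These shares rest on 104, 52 and 502 cells of sufficient depth in treated mice, against 191, 20 and 165 in vehicle mice. A count of 0 allows up to 5.77% in treated 2 and up to 15% in vehicle 2. Mitotic cells made up 11.5%, 19.2% and 9.36% in treated mice, against 34.6%, 0% and 4.85% in vehicle mice, and those of treated mice held 0.75, 0.70 and 1.60 member UMIs each. The mitotic call thus also took in neutrophils with few replication transcripts. In vehicle 1 the replicating cells lay in sub-clusters 7.0 and 7.2, with 31 of 97 cells replicating, against 1 of 94 in its other neutrophils. Elane, a granule protease of immature neutrophils, stood at 0, 0 and 173 CPM in treated mice, against 5023, 0 and 9.65 CPM in vehicle mice. In edgeR 0 of 21 members tested were called (background 0% of 7685 genes), with 3 (Mcm7, Lig1 and Dut) lower at an unadjusted p under 0.05 (4.71% of genes), and the DESeq2 count was 0. Pcna stood at 94.7, 116 and 154 CPM in treated mice, against 123, 146 and 55.4 CPM in vehicle mice, and Dut at 8.48, 4.56 and 17.8 CPM in treated mice, against 274, 30.97 and 10.4 CPM in vehicle mice. Dctpp1 stood at −1.46 and Rfc2 at −0.999 (adjusted p = 0.794 for both).

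In T and NK lymphocytes 8.43%, 7.22% and 6.08% of cells were replicating in treated mice, against 0% (0 of 8 cells, which allows up to 37.5%), 9.62% and 35.3% (12 of 34 cells) in vehicle mice (exact p = 0.7). In edgeR 0 of 16 members tested were called, where 0.202% of genes were called lower and 0.0202% higher; 1, Rrm2, was lower at an unadjusted p under 0.05 (2.32% of genes), and the DESeq2 count was 0. Dut stood at −0.24, Lig1 at 0.06, Pcna at −0.02 and Nasp at −0.20 (edgeR, adjusted p = 0.999 for each). In B lymphocytes the shares were 0%, 0% and 3.48% in treated mice, against 0% (0 of 12 cells, which allows up to 25%), 1.37% and 18.8% (3 of 16 cells) in vehicle mice. Mitotic B cells made up 0% (0 of 24 cells), 0% (0 of 19) and 2.32% (8 of 345) in treated mice. In vehicle mice they made up 8.33% (1 of 12 cells), 2.73% (10 of 366) and 31.2% (5 of 16), without overlap (exact permutation p = 0.1, the smallest possible). The counts of 0 in treated 1 and treated 2 allow up to 12.5% and 15.8%. Treated 3 and vehicle 2, with the most cells, had overlapping exact 95% intervals (1.01% to 4.52% and 1.32% to 4.97%). Of 4 members tested edgeR called 0, with 0 at an unadjusted p under 0.05 (2.03% of genes were lower and 0.850% higher so), and DESeq2 called 0 of 41; Nasp, Pcna, Rfc2 and Dut stood at 0.12, 0.57, −0.43 and −0.03 (edgeR, adjusted p = 0.993 for each). Lymphocytes of sufficient depth were too few in vehicle 1 and vehicle 3, and B cells also in treated 1 and treated 2, to show a difference at this depth. In vehicle 3, 205 of 239 T and NK cells and 165 of 181 B cells were left out as too shallow.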

How the data were processed

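Raw UMI counts were deposited by the authors as 1 matrix per mouse; per the submitters' processing notes they were made with Cell Ranger 5.0.1 on mm10, with no annotation release stated in the sources used here. The members and gene lists were chosen with earlier results of these data known. Cells needed 500 UMIs and 250 genes or more and no more than 20% mitochondrial UMIs, and the highest Scrublet scores, 0.8% per 1000 barcodes, were left out as doublets, because the caller's own threshold marked 0% to 0.600% of a library. Leiden clustering (scanpy 1.11.5, 2000 variable genes, 30 components, resolution 1, no integration) ran without the listed cell cycle genes, histone genes and 453 genes correlated with them. It gave 33 clusters and 189 sub-clusters. Sub-clusters took names from marker genes, with 3 markers at 50 CPM or more and 4-fold above the median sub-cluster, and 24 sub-clusters stayed unnamed. Single cells outside the erythroid class with over 20% of UMIs from the erythroid markers were also left unnamed. Unnamed cells numbered 2382 in all.

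Counts summed per mouse and class were tested in edgeR 4.0.16 (TMM, filterByExpr, robust quasi-likelihood; R 4.3.3), two-sided, treated over vehicle, with Benjamini-Hochberg adjustment at 0.05 over all genes of a class. The steps were tested on simulated data. DESeq2 1.42.0 was an alternative. Shares were compared by exact permutation over 3 against 3 mice, and intervals are exact Clopper-Pearson at 95%; the limit for a count of 0 is 3 counts. Per-mouse endothelial sums held 160317 to 2581904 UMIs. In a class with called members, those were named along with the 5 most counted; elsewhere the 4 members with the highest CPM, and up to 4 genes of each companion list, were named. Replicate numbers name different mice. One allele of the mouse model is not reported here.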

Additional observations from a re-analysis of the deposited data

How the results depend on the processing

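The endothelial count of 9 members lower ranged from 0 to 24 when 1 mouse was left out; it was 23 with no low count filter and 0 with treated 1 and 2 summed. With the replicate number as a block it was 5, all among the 9. Shares of all genes called are not given for the alternatives, so a rise in a count is not read as a result about the members. Same-numbered endothelial sums correlated at −0.07, 0.15 and 0.01 in their deviations. With 3 mice per group these values cannot decide whether the numbers pair the mice. In macrophages each mouse correlated best with its own number, a hint from the data only, and the block called 0 members there. DESeq2 called 1 member in fibroblasts and 1 in macrophages. The interaction counts of 0 ranged from 0 to 1 against tumour cells and from 0 to 15 against macrophages when 1 mouse was left out. Of 238 counts of members called, 228 stayed within 1.5 times the reported count, most of them counts of 0 that stayed at 0. The 10 that moved were endothelial counts, between 0 and 24, and the DESeq2 counts of fibroblasts and macrophages. The called members' fold changes kept their sign in all 153 alternatives and their call in 101.

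The difference in replicating share (treated minus vehicle, percentage points) kept its sign in 94 of 105 alternatives. In tumour cells, reported at −0.0066, it ranged from −4.21 to 4.45 when 1 mouse was left out, and was 2.16 at a limit of 8 UMIs, 1.87 at 1000 UMIs, 0.014 at 4000 UMIs and 0.93 with unnamed sub-clusters added, an alternative chosen after seeing the data. In neutrophils (−4.56) it was 0.24 with the mitosis list and ranged from −7.45 to 0.92; in B cells (−5.55) it was 0.90 at 1000 UMIs and ranged from −8.90 to 0.48; in T and NK cells (−7.73) it ranged from −15.2 to 2.44. The fibroblast level per replicating cell (−0.68) was 0.61 at a limit of 8 UMIs. The cause of these changes was not tested. Few cells of sufficient depth limit the vehicle 1 shares: 26 endothelial, 8 T and NK and 12 B cells.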

Other observations

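Replicating cells were also counted in the smaller classes, which had too few cells for a test. Pericytes and smooth muscle cells, which wrap the vessels, had 0 of 18, 1 of 15 and 3 of 29 replicating cells in treated 1, 2 and 3, against 1 of 10, 4 of 49 and 2 of 21 in vehicle 1, 2 and 3. Mesothelial cells had 0 of 16, 1 of 12 and 4 of 32 in treated mice, with only 1 such cell of sufficient depth in vehicle mice. Plasma cells had 0 of 7, 0 of 5 and 0 of 68 in treated mice, against 2 of 35, 3 of 43 and 2 of 13 in vehicle mice. Acinar cells, the enzyme-secreting cells of the pancreas, had 0 of 16 and 2 of 19 in treated 1 and 2 and 4 of 105 in vehicle 3, with none of sufficient depth in the other mice. Conventional dendritic cells had 0 of 8 in each treated mouse, and 1 of 6, 0 of 5 and 0 of 29 in vehicle mice.

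Cells left without a class name had 6.88%, 3.23% and 2.54% replicating cells in treated mice, against 11.2%, 6.47% and 8.98% in vehicle mice. Over all kept cells with at least 2000 UMIs, whatever their class, the share was 12.5%, 14.2% and 3.09% in treated mice, against 10.8%, 8.81% and 14.9% in vehicle mice, which overlap. The mitotic share of the same cells was 13.3%, 13.5% and 5.25% in treated mice, against 14.5%, 14.0% and 21.3% in vehicle mice, which do not overlap (exact permutation p = 0.1, the smallest possible). The exact 95% intervals of treated 2 (12.4% to 14.6%) and vehicle 2 (13.1% to 14.9%) did overlap. Mice differed in their mix of classes, and the cells include neutrophils, for which the mitotic call was not specific.

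Within tumour cells the 2 subunits of ribonucleotide reductase had unlike values, a pair named after their values were seen. Rrm2 had 25.8, 24.5 and 28.1 CPM in treated mice, against 128, 22.8 and 54.7 CPM in vehicle mice (−1.76 ± 0.60, edgeR, adjusted p = 0.369). Among mitotic tumour cells Rrm1 had 122, 139 and 118 CPM in treated mice, against 42.1, 78.3 and 59.1 CPM in vehicle mice (0.73 ± 0.26, edgeR, adjusted p = 0.282), with no overlap, and Rrm2 had 84.7, 90.6 and 123 CPM in treated mice, against 296, 92.4 and 79.5 CPM in vehicle mice (−1.02 ± 0.56, adjusted p = 0.411). Neither gene passed the test.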
